A study of Mus musculus with 12 samples.

Results

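The transcriptional effect of a lymphangiogenic vector given without amyloid immunotherapy was examined by setting the mVEGF-C+mIgG mice against the eGFP+mIgG mice, over all 14881 genes of the deposited table. These were 6 of the 12 libraries of the study, 3 per group. All mice were male APPswe, a strain that carries a transgene of amyloid precursor protein, aged 22 to 26 months, and each library came from the hippocampus of 1 mouse. In the mVEGF-C+mIgG group (mice 7, 8 and 9), 5 µL of an adeno-associated virus of serotype AAV1 encoding mouse vascular endothelial growth factor C under the broadly active CMV promoter was injected into the cisterna magna. The eGFP+mIgG group (mice 1, 2 and 3) received the same volume of AAV1-CMV-eGFP, which encodes a fluorescent protein. Both groups also received weekly intraperitoneal mIgG, a control antibody, at 40 mg/kg. The other 6 mice received the same vectors, mVEGF-C (mice 10, 11 and 12) or eGFP (mice 4, 5 and 6), with the antibody mAdu (mAducanumab) in place of mIgG. They share no mouse with the comparison under mIgG. Their libraries entered the same fit, so that they add to the estimate of each gene's spread, and their values show where the comparison differs. The labels do not give the interval between vector and dissection.

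VEGF-C is secreted and signals mainly through the receptor VEGFR-3, encoded by Flt4, on lymphatic endothelium, and vessels of that kind run in the meninges and not in the brain tissue itself. In the hippocampus, by contrast, neurons switch on a set of immediate early genes within minutes of synaptic activity. The first of these encode transcription factors such as Fos, Egr and Npas4, and others encode proteins that act at the synapse or end the signal, such as Arc, Homer1 and the Dusp phosphatases. Myelin is made by oligodendrocytes, which arise from precursors throughout adult life.

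Promoters of activity-induced genes are known for the cAMP response element, the site of the CREB family. The 300 bases from 250 before to 50 after the transcription start are printed for Fos and Npas4, the members of this set that passed the test below, and for Dusp1 and Btg2, which did not pass but hold the whole palindrome. The sequences are RefSeq's on GRCm38.p6, read along the strand of the gene, and capitals mark TGACG or its reverse complement CGTCA and the whole element TGACGTCA, which contains both.
Fos, chr12:85473640-85473939, plus strand: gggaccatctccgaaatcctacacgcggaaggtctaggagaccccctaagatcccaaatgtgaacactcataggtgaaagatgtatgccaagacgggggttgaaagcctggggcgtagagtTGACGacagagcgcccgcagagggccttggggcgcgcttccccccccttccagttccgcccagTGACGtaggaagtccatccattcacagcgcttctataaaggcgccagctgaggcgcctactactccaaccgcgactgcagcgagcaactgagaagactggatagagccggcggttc
Npas4, chr19:4989922-4990221, minus strand: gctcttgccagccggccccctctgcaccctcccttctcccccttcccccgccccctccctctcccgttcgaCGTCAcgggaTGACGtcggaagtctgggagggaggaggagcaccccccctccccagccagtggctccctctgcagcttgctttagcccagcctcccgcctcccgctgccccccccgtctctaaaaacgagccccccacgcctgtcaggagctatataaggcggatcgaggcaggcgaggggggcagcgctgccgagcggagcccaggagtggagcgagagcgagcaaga
Dusp1, chr17:26508423-26508722, minus strand: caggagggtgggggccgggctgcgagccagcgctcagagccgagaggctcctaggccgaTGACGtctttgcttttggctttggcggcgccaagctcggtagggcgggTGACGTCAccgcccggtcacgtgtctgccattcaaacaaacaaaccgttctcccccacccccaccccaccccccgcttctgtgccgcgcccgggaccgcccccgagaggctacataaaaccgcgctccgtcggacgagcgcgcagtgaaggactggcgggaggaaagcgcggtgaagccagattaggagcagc
Btg2, chr1:134079106-134079405, minus strand: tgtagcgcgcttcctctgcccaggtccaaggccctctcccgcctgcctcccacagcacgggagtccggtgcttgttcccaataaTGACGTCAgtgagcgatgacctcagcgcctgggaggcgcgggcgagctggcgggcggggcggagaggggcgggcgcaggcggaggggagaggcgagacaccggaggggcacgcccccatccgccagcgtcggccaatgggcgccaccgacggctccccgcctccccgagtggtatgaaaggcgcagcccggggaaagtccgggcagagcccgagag
The Fos window held TGACG at 129 and 66 bases before the start, and the Npas4 window held CGTCA at 179 and TGACG at 169 bases before it. The whole element lay 143 bases before the start in Dusp1 and 166 in Btg2. Of the rapid activity-induced genes described below, 43 had at least 1 window in the table, 61 windows in all, some of which overlap. TGACG or CGTCA was present in 38 of the 61 windows (62.3%), against 20.8% of all 32851 windows, and the whole element in 7 (11.5%), against 1.79%. Counted by gene, 31 of the 43 held TGACG or CGTCA. Myelin genes held TGACG or CGTCA in 20.7% of 29 windows. The AP-1 site, TGACTCA or TGAGTCA, was in 1 of the 61 windows (1.64%), against 5.20% of all windows. The CArG box, a run of A or T between CC and GG, was in 5 (8.20%), against 1.63%, and 4 of these 5 were windows of Egr2. A match describes letters in these windows and not a bound site.

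Library totals ran from 23213612 to 29295266 reads over the 12 mice. As source, the samples carry the words brain meninges, whereas the series description gives the whole right hippocampus. Some marker lists of the hippocampus were abundant, with medians of 96.6 CPM over 9 CA1 genes, 56.5 CPM over 11 CA3 genes and 41.1 CPM over 15 dentate granule cell genes, against 4.88 CPM over 21 genes of meningeal and perivascular fibroblasts (CPM, counts scaled to a common library size). Dorsal, ventral and CA2 lists were lower, at 24.4, 18.1 and 14.8 CPM, beside 34.7 CPM for thalamus and 22.3 CPM for neocortex. Among genes whose reads differed within a group by more than counting error, library 9 held the middle value of its group in 79.2% of 2711 and library 3 in 82.5% of 1579. Libraries 12 and 6 took the same place in their groups (85.9% and 81.9%). Tests below treat the libraries as separate mice, as the labels give them, and p-values would come out too small if any of them held shared RNA. The calls and the main lists are therefore given with and without libraries 3, 6, 9 and 12, although leaving out a middle value moves a group mean little.

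The vector's own gene was measured first. Vegfc stood at 3.67, 2.27 and 2.21 CPM in the mVEGF-C+mIgG mice 7, 8 and 9, against 3.45, 3.21 and 3.58 CPM in the eGFP+mIgG mice 1, 2 and 3. The groups overlapped, because mouse 7 lay above all eGFP+mIgG mice and mice 8 and 9 below them. The log2 change was -0.34 (SE 0.176), and it was -0.61 without mouse 7, -0.23 without mouse 8, -0.21 without mouse 9 and -0.17 without libraries 3, 6, 9 and 12. Its adjusted p was 0.662 by the quasi-likelihood test of edgeR, adjusted over all genes by the Benjamini-Hochberg method, and 0.0233 (log2 -0.57) by limma-voom with quality weights, the single alternative of 21 in which Vegfc passed, on the lower side. Whether reads of the vector's transcript count toward Vegfc depends on sequences not analysed here.

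Of the 14881 genes, 6 passed the test at an adjusted p under 0.05 (0.0403%), 4 higher (0.0269%) and 2 lower (0.0134%) in mVEGF-C+mIgG mice. At an unadjusted p under 0.05 there were 1177 genes (7.91%). The higher genes were the immediate early genes Fos and Npas4 and the oligodendrocyte genes Mobp and Bcas1. The lower ones were Tacr3, a neuropeptide receptor gene, and an identifier without a symbol. All 6 kept their direction in each of the alternative fits that held them, but the calls did not hold in all of them. Without libraries 3, 6, 9 and 12 the 5 genes with a symbol each had an adjusted p of 0.9997, with changes of similar size and a median SE over the 6 genes of 0.190, against 0.134 with all libraries. Without mouse 9 only 1 gene passed, the unnamed identifier, whereas without mouse 7 there were 52. In a fit of the 6 libraries alone 2 genes passed, and Mobp was the only one of the 6 among them (adjusted p = 0.0149). Over the 21 alternatives the adjusted p of Mobp lay between 4.96e-08 and 0.9997 and that of Fos between 4.17e-05 and 0.9997, under 0.05 in 16 fits for Mobp and 12 for Fos.

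Fos encodes a subunit of the transcription factor AP-1 and is a widely used marker of recent neuronal activity. It stood at 26.8, 30.8 and 31.2 CPM in mVEGF-C+mIgG mice, against 11.4, 18.7 and 14.3 CPM in eGFP+mIgG mice, and the groups did not overlap. The log2 change was 1.02 (SE 0.159), a 2.02-fold difference, with an adjusted p of 0.0260 in the quasi-likelihood test of edgeR. The gene (ENSMUSG00000021250) lies on chromosome 12 of mm10 from 85473890 to 85477273. Fos was also at 23.2 to 36.4 CPM in mVEGF-C+mAdu mice, against 15.8 to 18.9 CPM in eGFP+mAdu mice, a log2 change of 0.77.

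Npas4, a transcription factor gene induced by calcium entry in neurons, stood at 14.6, 12.0 and 12.8 CPM in mVEGF-C+mIgG mice, against 8.46, 5.76 and 7.02 CPM in eGFP+mIgG mice. Its log2 change was 0.88 (SE 0.126, adjusted p = 0.0133, quasi-likelihood test of edgeR). Each mVEGF-C+mIgG mouse lay above all other 9 mice of the study, whose highest value was 8.46 CPM. In the mAdu groups Npas4 averaged 6.21 ± 0.553 CPM with mVEGF-C and 5.66 ± 0.708 CPM with eGFP (SD, n = 3 each). The difference between its vector changes under mIgG and under mAdu, 0.75 on the log2 scale, did not pass (adjusted p = 0.408, edgeR's quasi-likelihood test). The gene (ENSMUSG00000045903) lies on chromosome 19 from 4984355 to 4990316.

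Around these, 53 rapid activity-induced genes were measured in 4 lists, and 48 had a positive and 5 a negative log2 change, with a median of 0.16 against 0.0005 over all genes, of which 50.2% were positive. Fos and Npas4 were the members that passed. In 20 of the 53 (37.7%) all mVEGF-C+mIgG mice lay above all eGFP+mIgG mice, against 6.38% of all genes, and in none did they lie below all of them, against 5.99%. Without libraries 3, 6, 9 and 12, 49 of the 53 were positive (median 0.16), and leaving out single libraries of the comparison gave 44 to 51. Under mAdu the median of the same genes was 0.21. These lists were chosen with earlier results of these data known, so the counts describe them and test nothing.

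**Figure D1:**
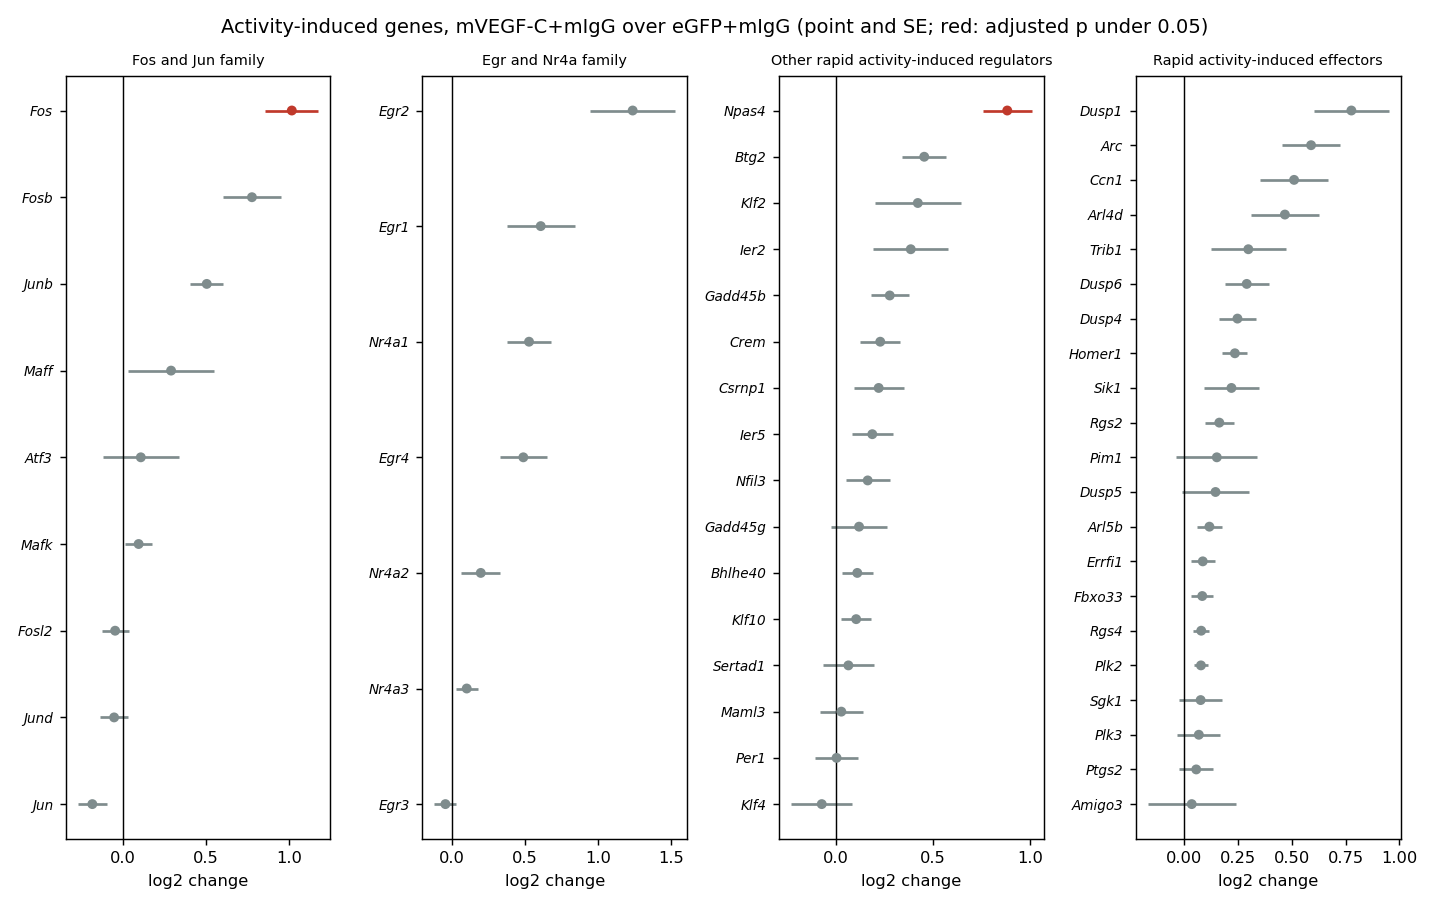
Each row is 1 gene of the 4 rapid activity-induced lists, and the horizontal axis is the log2 change of mVEGF-C+mIgG over eGFP+mIgG mice, with its SE as a bar. Red marks Fos and Npas4, which passed, and most other points lie right of 0 in grey, up to Egr2 at 1.24.

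Among the Fos and Jun family, 6 of 9 genes were positive. Junb, which pairs with Fos proteins in AP-1, stood at 91.3, 84.5 and 86.5 CPM in mVEGF-C+mIgG mice, against 56.1, 72.2 and 57.4 CPM in eGFP+mIgG mice (log2 0.50, adjusted p = 0.113, quasi-likelihood test of edgeR), and it overlaps Prdx2 in the annotation. Fosb stood at 5.79, 5.61 and 5.53 CPM in mVEGF-C+mIgG mice, against 2.76, 3.81 and 3.37 CPM in eGFP+mIgG mice, again without overlap. Jun, the other classical AP-1 subunit, did not pass and overlapped, at 112, 78.2 and 92.1 CPM in mVEGF-C+mIgG mice and 112, 107 and 103 CPM in eGFP+mIgG mice.

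In the Egr and Nr4a family, zinc finger and orphan nuclear receptor genes, 6 of 7 were positive and the median was 0.49, or 0.32 without mouse 8. Egr2 had the largest change of the family, at 5.46, 5.72 and 4.99 CPM in mVEGF-C+mIgG mice and 1.63, 3.11 and 2.24 CPM in eGFP+mIgG mice (log2 1.24, SE 0.290, adjusted p = 0.297, quasi-likelihood test of edgeR). Nr4a1 (log2 0.53) and Egr4 (log2 0.49) did not overlap between the groups, whereas Egr1 (log2 0.61) did, because mouse 7 at 23.1 CPM lay below mouse 2 at 27.9 CPM. Egr3, at 14.4 to 14.8 CPM in mVEGF-C+mIgG mice and 14.4 to 16.5 CPM in eGFP+mIgG mice, had a log2 change of -0.05.

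The 21 rapid effectors were all positive, and in 11 of them (52.4%) all mVEGF-C+mIgG mice lay above all eGFP+mIgG mice, against 6.38% of all genes. Arc, which encodes a protein that regulates AMPA receptor uptake at synapses, stood at 192, 224 and 199 CPM in mVEGF-C+mIgG mice, against 106, 172 and 132 CPM in eGFP+mIgG mice (log2 0.59). Homer1, a scaffold of the postsynaptic density, stood at 195, 209 and 214 CPM in mVEGF-C+mIgG mice, against 167, 183 and 175 CPM in eGFP+mIgG mice (log2 0.24). Dusp1, a phosphatase that switches off MAP kinases, stood at 7.86, 12.7 and 9.80 CPM in mVEGF-C+mIgG mice, against 4.58, 6.74 and 6.50 CPM in eGFP+mIgG mice (log2 0.78). None of the 3 passed, and mouse 1 was the lowest of the 6 mice for each. In the annotation Dusp1 overlaps Ergic1 and other genes. Btg2, an antiproliferative gene, stood at 34.9, 27.8 and 30.0 CPM in mVEGF-C+mIgG mice and 22.3, 21.6 and 23.7 CPM in eGFP+mIgG mice (log2 0.45).

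No member of the slower and the upstream lists passed. Of 21 delayed activity-induced genes 14 were positive with a median of 0.06, led by Gpr3, a receptor gene, at log2 0.51, and by the pentraxin gene Nptx2 at log2 0.20. Of 23 regulators upstream of these genes, such as CREB, its coactivators and calcium channels, 9 were positive and 14 negative, and in 5 (21.7%) all mVEGF-C+mIgG mice lay below all eGFP+mIgG mice, against 5.99% of all genes. The median of -0.01 turned positive without mouse 2 or mouse 9. Crtc2, a CREB coactivator, stood at 4.60, 4.33 and 4.04 CPM in mVEGF-C+mIgG mice, against 5.59, 5.30 and 5.23 CPM in eGFP+mIgG mice (log2 -0.31).

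**Figure D2:**
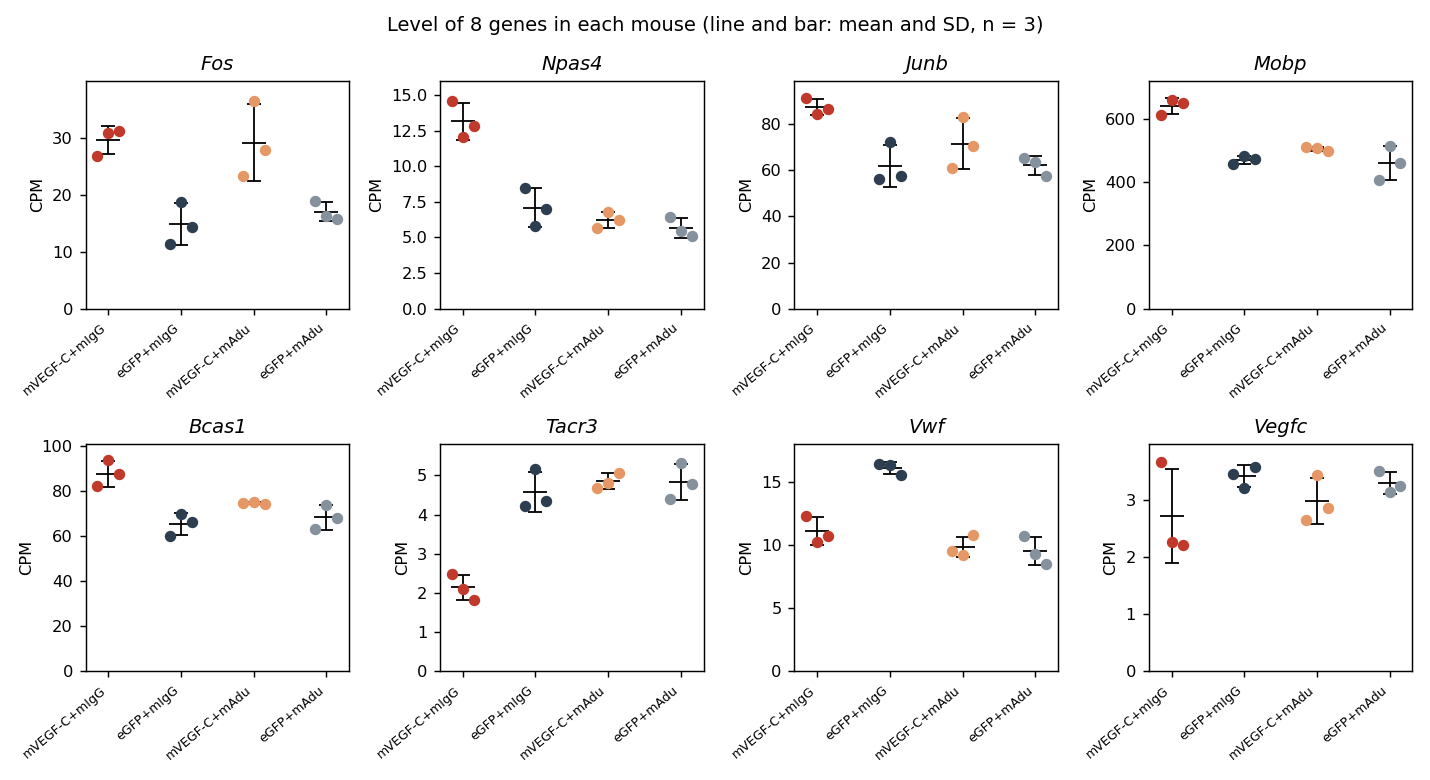
Each point is 1 mouse, in CPM, for 8 genes in the 4 groups, with the mean and SD (n = 3) in black. Npas4, Mobp and Bcas1 are higher and Tacr3 lower in the mVEGF-C+mIgG mice than in all other 9 mice, Fos is high in both mVEGF-C groups, and Vwf is high in the eGFP+mIgG mice alone.

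Mobp and Bcas1, the other 2 genes that rose, belong to oligodendrocytes. Mobp encodes myelin-associated oligodendrocyte basic protein and stood at 611, 658 and 651 CPM in mVEGF-C+mIgG mice, against 456, 481 and 474 CPM in eGFP+mIgG mice. Its log2 change was 0.44 (SE 0.061, adjusted p = 0.0117, quasi-likelihood test of edgeR), and each mVEGF-C+mIgG mouse lay above all other 9 mice, whose highest value was 512 CPM. Bcas1, a marker of oligodendrocytes that are beginning to myelinate, stood at 82.1, 93.7 and 87.6 CPM in mVEGF-C+mIgG mice, against 60.2, 69.7 and 66.4 CPM in eGFP+mIgG mice (log2 0.43, SE 0.062, adjusted p = 0.0138 by the same test). Its mVEGF-C+mIgG mice also lay above all other 9, whose highest value was 75.3 CPM. Over all genes, the 3 mVEGF-C+mIgG mice lay above the other 9 in 77 (0.517%) and below them in 84 (0.564%). Under mAdu the vector changed Mobp by 0.14 and Bcas1 by 0.13 on the log2 scale, and the differences of the 2 vector changes did not pass (adjusted p = 0.491 and 0.528, edgeR's quasi-likelihood test). Mobp (chromosome 9, 120149707 to 120181484) overlaps the predicted gene Gm38642, and Bcas1 (chromosome 2, 170346991 to 170427845) overlaps the antisense genes Bcas1os1 and Bcas1os2, so that reads of these cannot be told apart if counting ignored the strand.

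The other myelin genes did not pass. All 26 genes of compact myelin and its enzymes had a positive log2 change, with a median of 0.12, but Mobp alone passed and groups did not overlap for 2 (7.69%), which is close to the 6.38% of all genes. Mbp, the major basic protein of myelin, stood at 1219, 1375 and 1241 CPM in mVEGF-C+mIgG mice, against 952, 1212 and 1074 CPM in eGFP+mIgG mice (log2 0.24). Mouse 8 had the highest and mice 1 and 7 the lowest level of this list among the 6. Without mouse 8, 19 of the 26 were positive, with a median of 0.05, without mouse 7 the median was 0.19, and without libraries 3, 6, 9 and 12, 24 were positive (median 0.11). In a tissue sample, fewer cells of a type and less RNA per cell cannot be told apart. Markers of neocortex, whose white matter borders the hippocampus, differed within the group in the same order, with mean centred log2 levels of -0.19, 0.23 and 0.06 in mice 7, 8 and 9 beside myelin levels of -0.09, 0.33 and 0.17, and their part in the result was not tested.

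Earlier stages of the lineage were split. Among 14 genes of newly formed oligodendrocytes 8 were positive and 6 negative (median 0.02), and Cemip2, a hyaluronan-degrading protein gene, stood at 22.9, 21.2 and 21.3 CPM in mVEGF-C+mIgG mice, against 24.3, 25.8 and 24.8 CPM in eGFP+mIgG mice (log2 -0.20). Of 13 oligodendrocyte precursor markers 7 were positive and 6 negative (median 0.01).

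**Figure D3:**
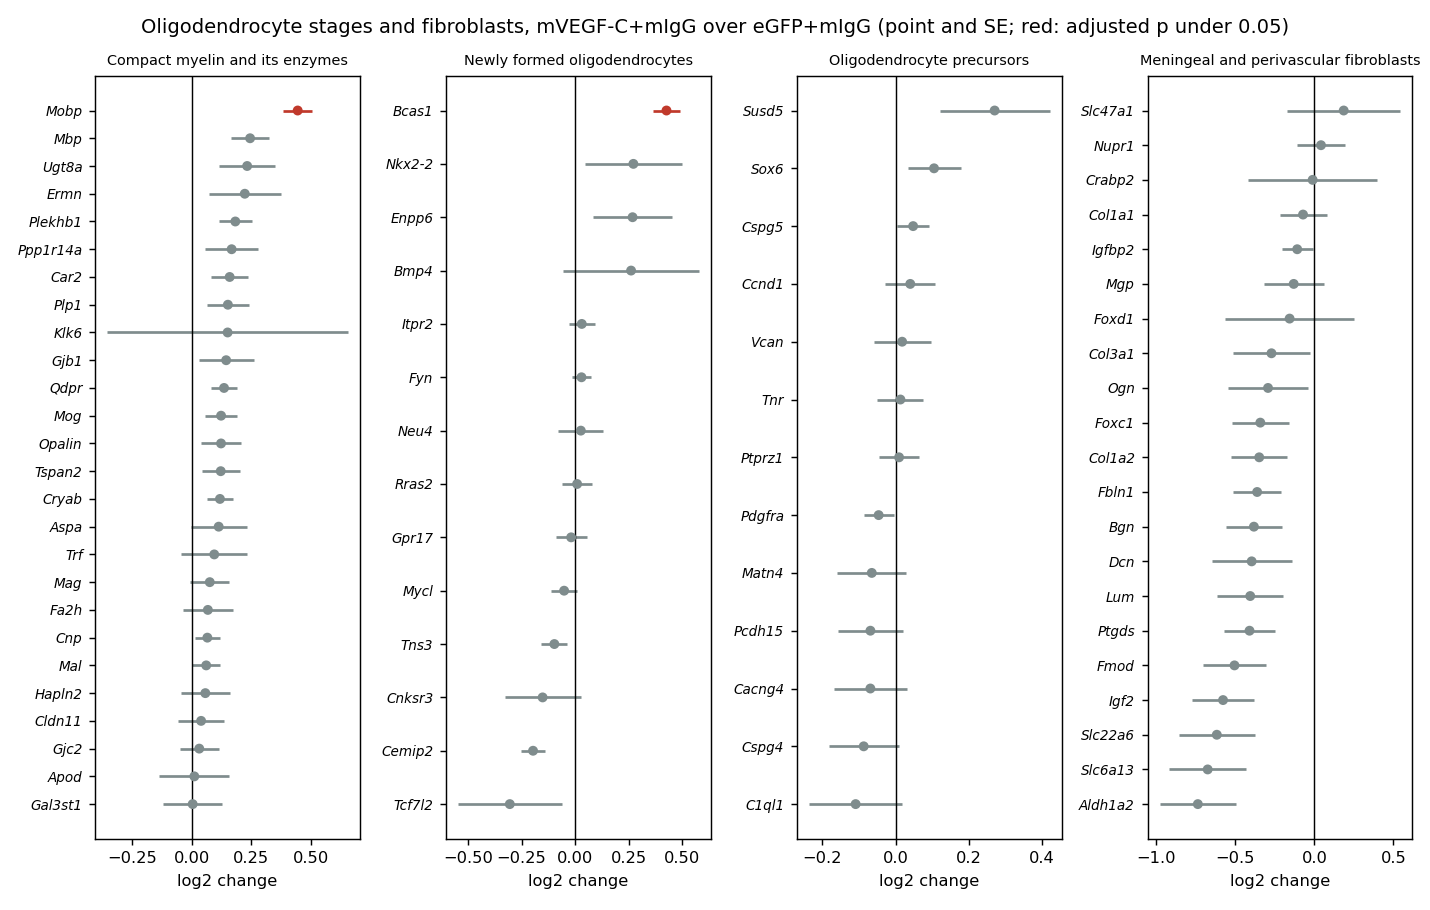
Each row is 1 gene of 4 lists, and the horizontal axis is the log2 change of mVEGF-C+mIgG over eGFP+mIgG mice, with its SE as a bar and red for genes that passed. The 26 myelin genes all lie right of 0, newly formed oligodendrocytes and precursors on both sides, and 19 of 21 fibroblast genes left of 0.

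Tacr3 encodes neurokinin 3 receptor, the receptor of neurokinin B. It stood at 2.49, 2.11 and 1.83 CPM in mVEGF-C+mIgG mice, against 4.21, 5.16 and 4.34 CPM in eGFP+mIgG mice, a log2 change of -1.09 (SE 0.142, adjusted p = 0.00834, quasi-likelihood test of edgeR). Each mVEGF-C+mIgG mouse lay below all other 9 mice, whose lowest value was 4.21 CPM. Under mAdu the means were 4.86 ± 0.197 CPM with mVEGF-C and 4.83 ± 0.455 CPM with eGFP (SD, n = 3 each), and the difference of the vector changes, -1.10 on the log2 scale, had an adjusted p of 0.111. The gene (ENSMUSG00000028172) lies on chromosome 3 from 134829007 to 134934579. Tac2, which encodes neurokinin B, stood at 1.71, 1.79 and 1.52 CPM in mVEGF-C+mIgG mice and 2.11, 1.95 and 1.82 CPM in eGFP+mIgG mice (log2 -0.23), and Tac1 had a log2 change of 0.13.

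Tacr3 is given beside markers that vary along the length of the hippocampus. All 9 markers of the ventral hippocampus were negative, with a median of -0.32, and none passed. Dcn, a member of this list, is also among the fibroblast markers given below. The groups overlapped, because the mean centred log2 level of the list was higher in mouse 7 (-0.06) than in mouse 2 (-0.09). Without mouse 9 the list median was -0.20 and without libraries 3, 6, 9 and 12 it was -0.23. All 9 were also negative under mAdu (median -0.16), where the log2 change of Tacr3 was 0.01. Trhr, the receptor of thyrotropin-releasing hormone, stood at 12.9, 7.63 and 11.7 CPM in mVEGF-C+mIgG mice, against 18.7, 13.2 and 16.4 CPM in eGFP+mIgG mice (log2 -0.60). Nr2f2, a nuclear receptor gene, stood at 17.9, 15.7 and 16.6 CPM in mVEGF-C+mIgG mice, against 24.8, 17.7 and 22.2 CPM in eGFP+mIgG mice (log2 -0.37). Of 5 dorsal markers 2 were positive (median -0.05), and of 15 dentate granule cell markers 4 (median -0.09), whereas CA1, CA2 and CA3 lists had medians from 0.006 to 0.03. Whether the share of ventral tissue had a part in the change of Tacr3 was not tested.

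The unnamed identifier, ENSMUSG00000045999, had the largest change. It stood at 170, 1037 and 132 CPM in mVEGF-C+mIgG mice, against 91435, 91826 and 24414 CPM in eGFP+mIgG mice, which is 0.0135% to 0.105% of the reads of the first and 2.44% to 8.59% of those of the second. The other 6 mice were at 108 to 236 CPM, so the eGFP+mIgG mice stood apart. Lars2, a mitochondrial leucyl-tRNA synthetase gene, was likewise high in mice 1 and 2, at 5.34, 7.00 and 7.32 CPM in mVEGF-C+mIgG mice and 19.1, 18.1 and 9.46 CPM in eGFP+mIgG mice (log2 -1.23, adjusted p = 0.113, quasi-likelihood test of edgeR). With the identifier removed before scaling, the other 5 genes still passed.

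The genes next in order of p did not pass, and those with a predicted or clone name are left out of that order here: Gm42418 (log2 -1.19, adjusted p = 0.0804) would come right after Foxo1 among the lower ones and 1190002N15Rik (log2 0.27, adjusted p = 0.0804) ahead of Rngtt among the higher ones, both by edgeR. Among the other 10 next on the higher side, 5 were activity genes already given or of their lists (Junb, Dusp1, Fosb, Arc and Egr2). The others were Rngtt, an mRNA capping enzyme (log2 0.22), Lpar1, a lysophosphatidic acid receptor of oligodendrocytes (0.25), Oxsr1, a kinase (0.20), Fam208a, a subunit of the HUSH silencing complex (0.15), and Trbc2. Trbc2, a constant segment of the T cell receptor beta chain, stood at 0.530, 1.63 and 1.14 CPM in mVEGF-C+mIgG mice, against 0.291, 0.325 and 0.241 CPM in eGFP+mIgG mice (log2 1.95, SE 0.392, adjusted p = 0.116, quasi-likelihood test of edgeR). All mVEGF-C+mIgG values lay above the eGFP+mIgG values, but mouse 7 lay below the 3 eGFP+mAdu mice, which had 0.568 to 0.797 CPM. Trbc2 is nearly identical to Trbc1, so its count is uncertain.

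On the lower side, with Gm42418 left out, the next 10 were Vwf, Foxo1, Agt, Myoc, Timp2, Lars2, Carmil3, Fxyd6, Med16 and Lhfpl4, again without passing. Foxo1, a transcription factor restrained by insulin signaling, stood at 10.6, 10.5 and 11.2 CPM in mVEGF-C+mIgG mice, against 14.9, 14.6 and 13.9 CPM in eGFP+mIgG mice (log2 -0.43, adjusted p = 0.0802, quasi-likelihood test of edgeR). Foxo6 was at log2 -0.27, but 8 of 16 genes of insulin signaling and FoxO factors were positive. Agt, which encodes angiotensinogen and is made by astrocytes, stood at 14.1, 13.5 and 13.7 CPM in mVEGF-C+mIgG mice, against 16.6, 19.4 and 18.4 CPM in eGFP+mIgG mice (log2 -0.39). Myoc, a secreted glycoprotein gene, stood at 18.4, 14.6 and 17.4 CPM in mVEGF-C+mIgG mice, against 27.9, 22.0 and 26.1 CPM in eGFP+mIgG mice (log2 -0.60). The 14 astrocyte markers as a list had a median of -0.02.

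For the vessels, which VEGF factors act on, no gene passed. Vwf, which encodes von Willebrand factor, a clotting protein of endothelium, came nearest, at 12.3, 10.2 and 10.8 CPM in mVEGF-C+mIgG mice and 16.5, 16.3 and 15.5 CPM in eGFP+mIgG mice (log2 -0.54, SE 0.093, adjusted p = 0.0731, quasi-likelihood test of edgeR). With mAdu, the mice of both vectors were at 8.52 to 10.8 CPM, so that the eGFP+mIgG mice were the group that stood apart. The other endothelial genes did not follow it, since 19 of 28 were positive with a median of 0.04. Flt1, which encodes VEGFR-1, stood at 29.6, 30.5 and 27.2 CPM in mVEGF-C+mIgG mice, against 25.1, 23.7 and 25.8 CPM in eGFP+mIgG mice (log2 0.22).

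Of 10 VEGF ligands and receptors 9 were negative, with a median of -0.13, or -0.08 without mouse 1. Flt4, the VEGF-C receptor, stood at 1.26, 1.43 and 1.26 CPM in mVEGF-C+mIgG mice and 1.53, 1.30 and 1.34 CPM in eGFP+mIgG mice (log2 -0.08). Nrp2, a co-receptor of VEGF-C that neurons also make, stood at 63.6, 55.1 and 57.8 CPM in mVEGF-C+mIgG mice, against 71.3, 60.2 and 69.6 CPM in eGFP+mIgG mice (log2 -0.19). Kdr, which encodes VEGFR-2, had a log2 change of -0.01, which turned positive in 4 of the alternative fits, and Vegfb, a ligand of VEGFR-1, one of -0.21. Of 4 measured lymphatic endothelial markers (Nrp2, Prox1, Pdpn and Flt4), the first 2 of which hippocampal neurons also express, 3 were negative and their summed level was 115 to 130 CPM in mVEGF-C+mIgG mice and 131 to 139 CPM in eGFP+mIgG mice.

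No gene of the brain's borders passed. Of 21 markers of meningeal and perivascular fibroblasts 19 were negative, with a median of -0.35, and in 10 (47.6%) all mVEGF-C+mIgG mice lay below all eGFP+mIgG mice, against 5.99% of all genes. Without libraries 3, 6, 9 and 12 the count was again 19 and the median -0.36. Their summed level was 308 to 372 CPM in mVEGF-C+mIgG mice and 439 to 459 CPM in eGFP+mIgG mice. Ptgds alone gave 189 to 201 CPM of the first sum and 252 to 267 CPM of the second. Aldh1a2, an enzyme of retinoic acid synthesis in the meninges, stood at 3.79, 3.42 and 4.08 CPM in mVEGF-C+mIgG mice, against 6.17, 6.18 and 6.47 CPM in eGFP+mIgG mice (log2 -0.74). Ptgds, prostaglandin D2 synthase, stood at 194, 189 and 201 CPM in mVEGF-C+mIgG mice, against 252, 267 and 257 CPM in eGFP+mIgG mice (log2 -0.41). Igf2, a growth factor of the meninges and choroid plexus, was at log2 -0.58. Under mAdu all 21 were negative for the vector as well (median -0.48), although the eGFP+mAdu mice spread widely, with summed levels from 332 to 598 CPM.

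Border-associated macrophages, the resident macrophages of meninges and perivascular spaces, had 4 measured markers, all negative, with a median of -0.66, or -0.58 without libraries 3, 6, 9 and 12. Cd163, a scavenger receptor for haemoglobin, stood at 0.570, 0.278 and 0.610 CPM in mVEGF-C+mIgG mice, against 1.13, 1.26 and 1.45 CPM in eGFP+mIgG mice (log2 -1.38, SE 0.339, adjusted p = 0.306, quasi-likelihood test of edgeR). F13a1, the A chain of coagulation factor XIII, stood at 1.96, 1.99 and 1.56 CPM in mVEGF-C+mIgG mice, against 3.16, 2.79 and 3.72 CPM in eGFP+mIgG mice (log2 -0.82), and Mrc1, the mannose receptor, at 3.50, 4.25 and 4.50 CPM in mVEGF-C+mIgG mice, against 5.92, 5.53 and 5.78 CPM in eGFP+mIgG mice (log2 -0.49). Stab1, which microglia also express, overlapped between the groups (log2 -0.16). Under mAdu all 4 markers were negative for the vector as well (median -0.20). The mean centred log2 level of this list was -0.20, -0.14 and -0.10 in mVEGF-C+mAdu mice 10, 11 and 12. In eGFP+mAdu mice 4, 5 and 6 it was 0.40, -0.36 and -0.02, against 0.34 to 0.52 in eGFP+mIgG mice. Ttr, the most abundant gene of the choroid plexus, stood at 19.2, 29.1 and 27.4 CPM in mVEGF-C+mIgG mice, against 30.4, 74.2 and 50.1 CPM in eGFP+mIgG mice (log2 -1.02), while 4 of 11 choroid plexus markers were positive with a median of -0.04. That median turned to 0.07 with 7 positive without libraries 3, 6, 9 and 12, and it also turned positive without mouse 3 or mouse 8. How much meninges and choroid plexus was dissected with each hippocampus is not given in the sources used here, and its part in these levels was not tested.

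**Figure D4:**
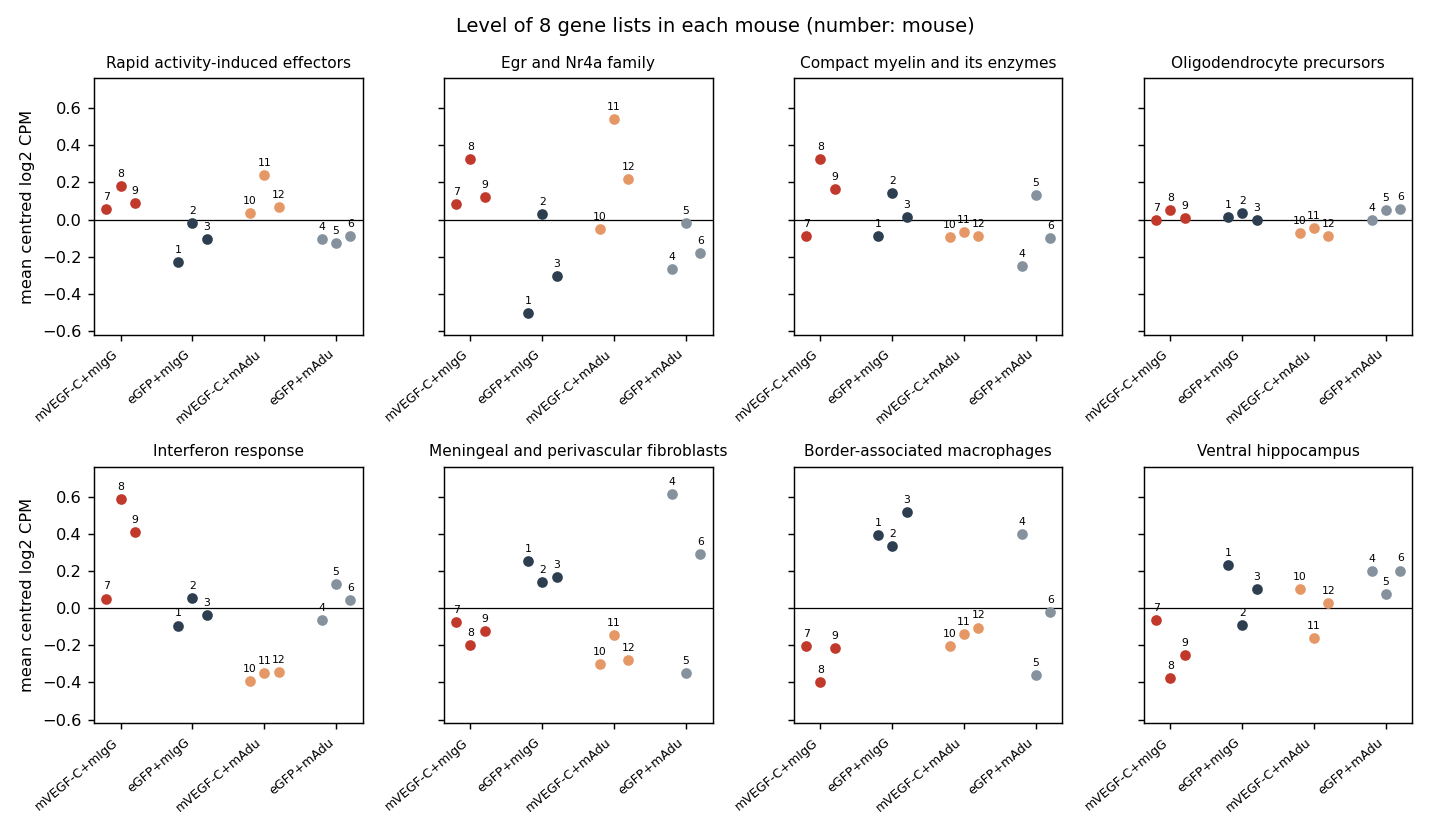
The vertical axis is the mean over a list's genes of log2 CPM, with every gene set to 0 at its average of the 12 libraries, and each point is 1 mouse with its number, in 4 groups. The 3 mVEGF-C+mIgG mice lie above the eGFP+mIgG mice for the rapid effectors and below them for fibroblasts and border-associated macrophages, and for the interferon list mouse 7 lies beside the eGFP+mIgG mice.

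Interferon response genes, which cells switch on after contact with interferons, were positive in all 21 measured members, with a median of 0.42, and none passed. Ifit3, an antiviral RNA-binding protein gene, stood at 10.3, 17.3 and 14.0 CPM in mVEGF-C+mIgG mice, against 9.11, 9.72 and 8.88 CPM in eGFP+mIgG mice (log2 0.59), although its reads may be shared with the close copy Ifit3b. Iigp1, an immunity-related GTPase gene, stood at 2.49, 4.29 and 4.16 CPM in mVEGF-C+mIgG mice, against 2.07, 2.32 and 2.00 CPM in eGFP+mIgG mice (log2 0.78). Mouse 7 stood close to the eGFP+mIgG mice, with a list level of 0.05 beside 0.59 and 0.41 in mice 8 and 9, against -0.09, 0.05 and -0.04 in eGFP+mIgG mice 1, 2 and 3, and in 3 of 21 genes (14.3%) all mVEGF-C+mIgG mice lay above all eGFP+mIgG mice, against 6.38% of all genes. Without mouse 8 the count was 17 of 21 and the median 0.28, without mouse 7 the median was 0.61, and without libraries 3, 6, 9 and 12 all 21 were positive with a median of 0.40. Under mAdu the vector went the other way, with 2 of 21 positive and a median of -0.43. The difference of the 2 vector changes did not pass for any member, and was 1.51 on the log2 scale for Iigp1 (SE 0.280, adjusted p = 0.161, quasi-likelihood test of edgeR).

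Of 15 markers of homeostatic microglia 13 were positive (median 0.10), and in 6 (40.0%) all mVEGF-C+mIgG mice lay above all eGFP+mIgG mice, against 6.38% of all genes, among them Csf1r, the receptor that microglia depend on, at 92.6, 91.3 and 92.9 CPM in mVEGF-C+mIgG mice and 85.6, 89.2 and 87.8 CPM in eGFP+mIgG mice. Without libraries 3, 6, 9 and 12, 13 were again positive (median 0.08), but without mouse 8 only 10 of 15 were (median 0.09). The list level of mouse 7, -0.027, lay below those of eGFP+mIgG mice 2 (0.003) and 3 (-0.021). Under mAdu 1 of 15 was positive (median -0.14). The largest change of this list under mIgG, log2 0.24, was also the largest among the regulators upstream of activity-induced genes, so these lists share a gene. The 26 genes of disease-associated microglia, which gather at amyloid plaques, had 21 positive members, a median of 0.07 and no gene without overlap, and without mouse 8 only 8 were positive (median -0.01). App, the mouse gene of amyloid precursor protein, stood at 4721, 4995 and 4786 CPM in mVEGF-C+mIgG mice, against 5337, 5146 and 5225 CPM in eGFP+mIgG mice (log2 -0.12). Whether reads of the strain's transgene count toward App depends on sequences not analysed here. Of 22 genes of amyloid precursor, secretases and clearance 7 were positive with a median of -0.01, and Bace2, a relative of beta-secretase, had the smallest p of the list, at 3.83, 2.70 and 2.59 CPM in mVEGF-C+mIgG mice, against 5.81, 3.58 and 4.34 CPM in eGFP+mIgG mice (log2 -0.60). App differed much more among the eGFP+mAdu mice, at 5487, 1342 and 3716 CPM in mice 4, 5 and 6, so the shared estimate of its spread is wide (SE 0.290). Why mouse 5 was low was not tested, and its library entered the fit.

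**Figure D5:**
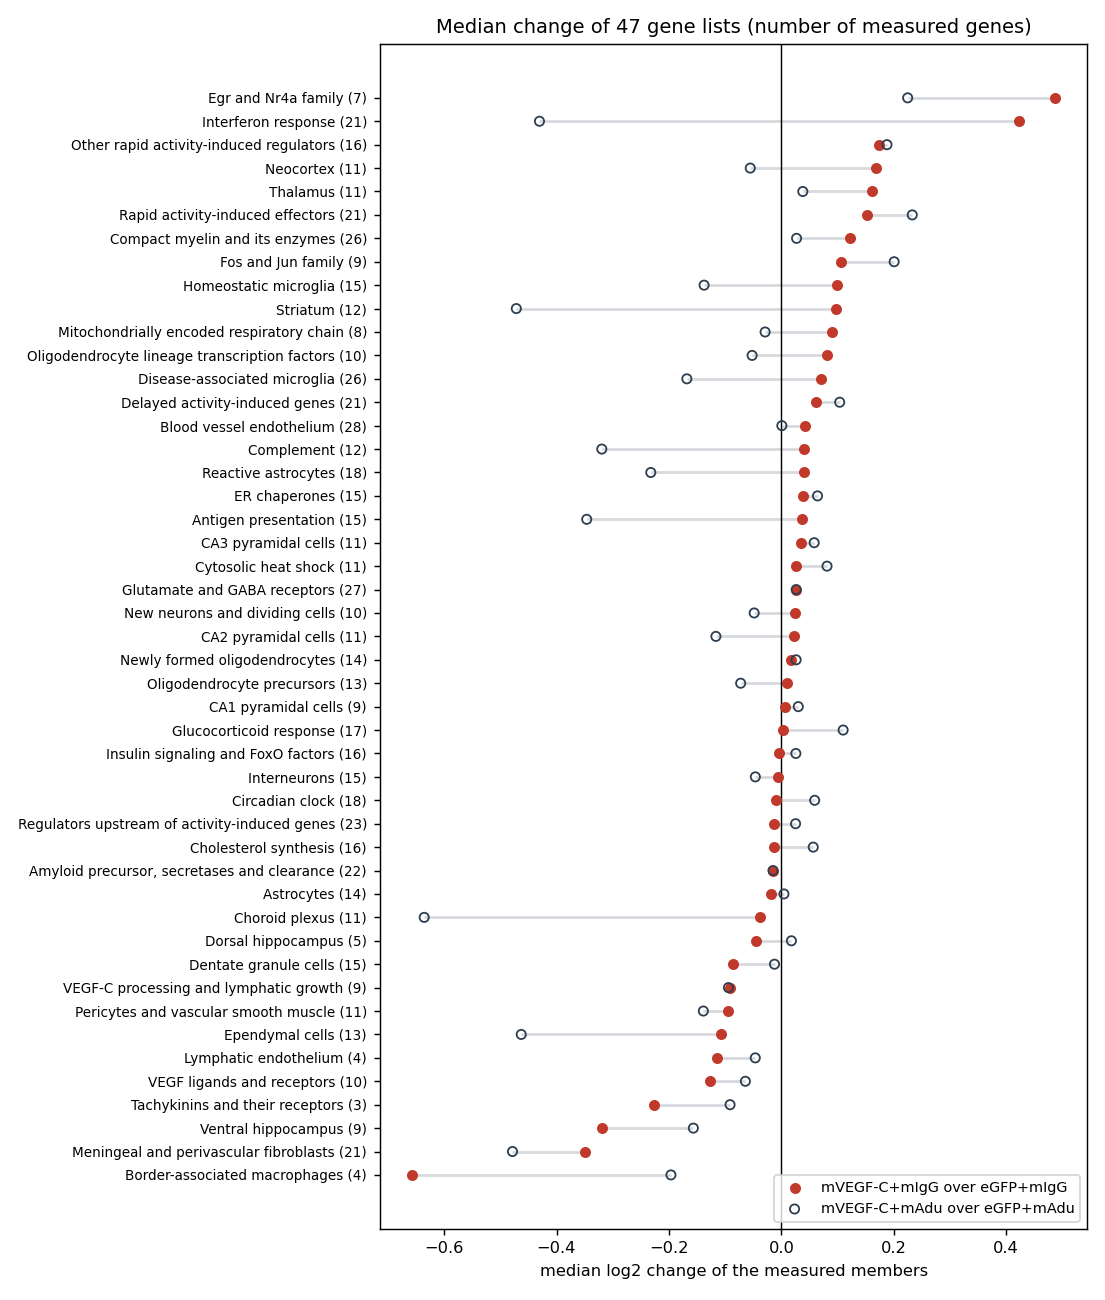
Each row is 1 of 47 gene lists with its number of measured genes, and the horizontal axis is the median log2 change of its members, filled red for mVEGF-C+mIgG over eGFP+mIgG and open for mVEGF-C+mAdu over eGFP+mAdu. Rapid and delayed activity-induced, interferon and myelin lists lie right of 0 under mIgG. Border-associated lists and the regulators upstream of activity-induced genes (-0.01) lie left of 0. The interferon median is 0.42 under mIgG and -0.43 under mAdu.

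With mAdu, the mVEGF-C vector changed 7 genes past the same threshold (0.047%). The difference between the 2 vector changes passed for 2 genes (0.0134%), the unnamed identifier and Ide, which encodes insulin-degrading enzyme. The call of Ide was kept in 6 of 19 alternative fits and that of the identifier in 7 of 18, and both were lost without libraries 3, 6, 9 and 12. None of the 5 genes with a symbol that passed under mIgG was among them, so their changes are not shown to differ between the antibodies.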

How the data were processed

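Per the labels, an Arcturus PicoPure kit served for RNA extraction, and the RNA was linearly amplified before library preparation. The authors deposited raw read counts per gene, 1 library per mouse, and the submitters' processing notes name FastQC, Trim Galore, STAR, Subread, featureCounts, edgeR and mm10. Of versions, annotation and strand setting the sources used here say nothing. Symbols and coordinates came from GENCODE M21, which left 90 of 14881 identifiers unnamed; the lowest total of a gene was 147 reads, and the filterByExpr function removed none. The groups followed the sample titles.

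The fit was made on all 12 libraries in edgeR 4.0.16 under R 4.3.3 (TMM scaling, 1 mean per group, common coefficient of variation 5.16%). Contrasts were tested two-sided with the quasi-likelihood test and Benjamini-Hochberg adjustment over all genes, at 0.05. CPM are relative to the TMM-scaled total, and list levels use a prior count of 2. Alternatives were DESeq2 1.42.0 (size factors or Wald test), limma 3.58.1 voom with quality weights, other filters, the unnamed identifier or libraries left out, and smaller fits. Counts were also simulated with 200 of 14881 genes changed. The comparison recovered 44%, 80% and 94% of changes of 1.25, 1.5 and 2 times, beside 9, 6 and 12 false calls. These rates describe the simulated counts alone. In the mice, whole lists such as the myelin and interferon genes differed together within a group, and some libraries mostly held its middle value. Whether the rates hold for such libraries was not tested.

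Genes named are those that passed, the next 10 by p in each direction (predicted and clone names left out), up to 8 per list by p (lists of at most 12 in full), and Vegfc, Flt4, Kdr, Nrp2 and App. The comparison and the 47 lists were chosen with earlier results of these data known. Promoters were matched by symbol to RefSeq's table on GRCm38.p6.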

Additional observations from a re-analysis of the deposited data

Results flagged for a closer look

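2 results stood out because the vector's effect under mIgG differed from that under mAdu in a test of the difference. The unnamed identifier ENSMUSG00000045999 differed by -6.73 on the log2 scale (adjusted p = 0.0266, edgeR's quasi-likelihood test; 3.72e-06 to 0.240 over 18 alternatives, of which 7 kept the call), with 132 to 1037 CPM in mVEGF-C+mIgG mice, 24414 to 91826 CPM in eGFP+mIgG mice and 108 to 236 CPM in the other 6 mice.

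Ide differed by 0.36 (adjusted p = 0.0405, edgeR's quasi-likelihood test). The change lay between 0.34 and 0.40 in 19 alternatives, with an adjusted p of 0.000585 to 0.9999, and 6 of them kept the call. It was lost without the unnamed identifier (0.0921), without libraries 3, 6, 9 and 12, and without any single mouse but mouse 7. It stood at 71.1, 76.7 and 75.7 CPM in mVEGF-C+mIgG mice, against 70.4, 72.7 and 70.2 CPM in eGFP+mIgG mice, which did not pass. With mAdu it averaged 81.0 ± 1.81 CPM with mVEGF-C and 99.5 ± 0.862 CPM with eGFP (SD, n = 3 each).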

How the results depend on the processing

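The 6 genes kept their direction in the 21 alternative fits, as far as they were in them (the unnamed identifier is absent from those that leave it out), but their number did not hold. In place of 6 genes, the DESeq2 Wald test gave 20, limma-voom with quality weights 937, the fit without libraries 3, 6, 9 and 12 gave 2, the fit of the 6 libraries alone 2, and a fit of libraries 1, 2, 7 and 8, added after the data were seen, 1. Leaving out each library in turn gave 1 (without mouse 9) to 52 (without mouse 7). DESeq2 size factors and both other filters left 6 and removal of the unnamed identifier 5.

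For the difference between the vector effects, 2 genes in edgeR became 8 with the DESeq2 Wald test and 220 with limma-voom. There were 0 without the identifier (1025 at an unadjusted p under 0.05) and 0 without libraries 3, 6, 9 and 12 (248 at an unadjusted p under 0.05), and 0 to 36 with each library left out in turn, 36 without mouse 7. The causes were not tested, beyond the smaller number of libraries in the fits that leave some out.

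The log2 change of Kdr was 0.0529 without libraries 3, 6, 9 and 12 and 0.0519 with libraries 1, 2, 7 and 8 only, against -0.01 with all libraries, and with single libraries left out lay between -0.0563 (mouse 1) and 0.0649 (mouse 3). No paired analysis was possible because the labels number the mice 1 to 12 and no number is shared between groups. With 1 library of the comparison or libraries 3, 6, 9 and 12 left out, the medians of 21 of 47 lists changed sign in at least 1 fit, and none of these was farther from 0 than 0.107 with all libraries. Genes under about 1 CPM, such as Cd163 and Trbc2, rest on few reads.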

Other observations

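No gene of the following lists passed. Of 15 genes of endoplasmic reticulum chaperones 12 were positive with a median log2 change of 0.04, and in 3 of them all mVEGF-C+mIgG mice lay above all eGFP+mIgG mice, against 6.38% of all genes. Of 18 circadian clock genes 9 were positive (median -0.01). Of 16 cholesterol synthesis genes 7 were positive (median -0.01), and of 27 glutamate and GABA receptor genes 16 (median 0.03). Of 13 ependymal markers 11 were negative (median -0.11), but without mouse 1 7 were positive (median 0.01). Of 12 complement genes 9 were positive (median 0.04), and without mouse 8 6 were (median -0.03). All 8 mitochondrially encoded respiratory chain genes were positive with a median of 0.09, but without mouse 8 4 were (median 0.002).

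Gm42418, a predicted gene outside the rule for named genes and described after its values were seen, stood at 119, 97.6 and 96.5 CPM in mVEGF-C+mIgG mice and 298, 283 and 132 CPM in eGFP+mIgG mice, with mice 1 and 2 high as for Lars2 and the unnamed identifier. In the annotation Gm42418 overlaps AY036118 and CT010467.1. Why Gm42418, Lars2 and the identifier were high in mice 1 and 2 was not tested.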
